A study of Mus musculus with 7 samples.

Results

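The transcripts described here are those of the mouse mitochondrial genome, taken as every gene of the count table whose GRCm38 symbol starts with mt-. There were 37 such genes among 53465 in the table. They comprised 13 protein-coding genes, 2 ribosomal RNA genes and 22 transfer RNA genes. The RNA came from renal tissue of MRL/lpr mice, which lack normal Fas and spontaneously develop lupus-like autoimmunity with nephritis. 4 mice had been given AZD1152, the prodrug of an Aurora B kinase inhibitor also called barasertib, and 3 had been given vehicle. All 7 mice carried the same disease background, and no healthy strain was part of the comparison. The labels gave no dose, schedule, age or batch. Each mouse gave 1 library, so that p-values measure the spread between these mice. Messenger RNA was captured with oligo(dT) beads before fragmentation, and reads were counted by gene. Library totals ran from 14692113 to 17036862 counts.

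The mitochondrial genome is a small circle that is transcribed from both strands into long RNAs, which are then cut at the transfer RNAs that separate most of its genes. All of its proteins are subunits of the respiratory complexes I, III, IV and V, the remaining subunits of which are encoded in the nucleus. The proximal tubule of the kidney is rich in mitochondria and depends on respiration for solute reabsorption. Most mitochondrial messengers carry short poly(A) tails, while the ribosomal RNAs carry very short ones and the mature transfer RNAs have none. This bears on a library made from oligo(dT)-captured RNA. The nuclear genome holds copies of mitochondrial sequence, and a read that matches both places equally well cannot be assigned by its letters.

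Exact nuclear copies were looked for first, since they bear on which members could be counted at all. Every stretch of 100 bases of each mitochondrial gene was searched among all other GENCODE transcripts of GRCm38. Of such stretches, 99.5% of mt-Co2, 99.5% of mt-Atp6, 99.9% of mt-Co3, 97.6% of mt-Nd3 and 98.5% of mt-Nd4l were found in a nuclear pseudogene. For mt-Nd4 the share was 60.8%, for mt-Co1 it was 30.8% and for mt-Nd2 it was 3.19%. It was 0 for mt-Nd1, mt-Nd5, mt-Nd6, mt-Cytb, mt-Atp8, mt-Rnr1 and mt-Rnr2. With stretches of 50 bases it was 51.1% for mt-Co1, 8.19% for mt-Nd2, 7.61% for mt-Nd5 and 1.04% for mt-Rnr2, and read length was not given. The copied genes neighbour each other. Their 7 nuclear counterparts lie in the same order on the minus strand of chr1:24611535-24616197, opposite mitochondrial bases 6390 to 11042 (chrM, plus strand). The positions of the 7 pairs kept the same spacing to within 1 base. In this block Gm28661 matched mt-Co2, Gm10925 matched mt-Atp6, Gm28437 matched mt-Co3, Gm10222 matched mt-Nd4l and Gm28439 matched the first 876 bases of mt-Nd4, all without a mismatch over the aligned bases. Gm28438 differed from mt-Nd3 at 1 of 345 aligned bases, and Gm29216 differed from mt-Co1 at 1 of 483. mt-Atp8 lies inside the block but had no annotated counterpart there, and nuclear sequence without annotation was not searched.

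The sequences show how little separates these pairs. They are the reference sequences of GENCODE release M21 on GRCm38, not sequences read from these mice, and each is written 5′ to 3′ on its own gene's strand. The start of mt-Nd3 (chrM:9459-9491, plus strand) and of its counterpart Gm28438 (chr1:24613087-24613119, minus strand) are shown with their differing base in capitals.
mt-Nd3: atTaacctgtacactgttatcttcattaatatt
Gm28438: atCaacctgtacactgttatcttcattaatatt
The stretch of mt-Co1 where the block begins (chrM:6390-6423, plus strand) and that of Gm29216 (chr1:24616155-24616188, minus strand) are written in the same way.
mt-Co1: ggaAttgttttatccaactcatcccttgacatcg
Gm29216: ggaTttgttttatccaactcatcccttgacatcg
The first 80 bases of mt-Atp6 (chrM:7927-8006, plus strand) are also the first 80 bases of Gm10925. The capitals mark the 43 bases that mt-Atp6 shares with the end of mt-Atp8, which is read in another frame.
mt-Atp6 and Gm10925: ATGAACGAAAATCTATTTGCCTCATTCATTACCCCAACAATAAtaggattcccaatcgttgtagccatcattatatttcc
By contrast, mt-Cytb has a diverged nuclear relative, Gm11410 on chromosome 4, with 81 mismatches over 1142 aligned bases (92.9% identity). An 80-base stretch of mt-Cytb (chrM:14146-14225, plus strand) and of Gm11410 (chr4:80003990-80004069, plus strand) holds 5 of these differences, shown in capitals.
mt-Cytb: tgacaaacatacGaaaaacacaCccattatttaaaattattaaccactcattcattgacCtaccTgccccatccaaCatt
Gm11410: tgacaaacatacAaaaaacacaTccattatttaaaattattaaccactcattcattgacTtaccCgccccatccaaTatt

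Mitochondrial transcripts took a larger share of the counts in every AZD1152 kidney than in any vehicle kidney. The 37 genes together took 9.002%, 8.11% and 8.03% of the library total in vehicle replicates 1 to 3. They took 9.64%, 11.6%, 9.41% and 9.76% in AZD1152 replicates 1 to 4. The groups did not overlap, and the top value belonged to AZD1152 replicate 2. The means were 8.38% ± 0.539 (SD, n = 3) and 10.1% ± 1.00 (SD, n = 4), a difference of 1.72 percentage points (exact two-sided permutation test, p = 0.0571). That p is the smallest that 3 against 4 mice can give, so the design cannot reach 0.05 in this test. It was 1 of 21 shares and ratios tested in this way, over which its Benjamini-Hochberg adjusted exact permutation p was 0.24. Without AZD1152 replicate 2 the difference was 1.22 percentage points. In whole tissue, more mitochondria-rich cells and more mitochondrial RNA per cell cannot be told apart.

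**Figure D1:**
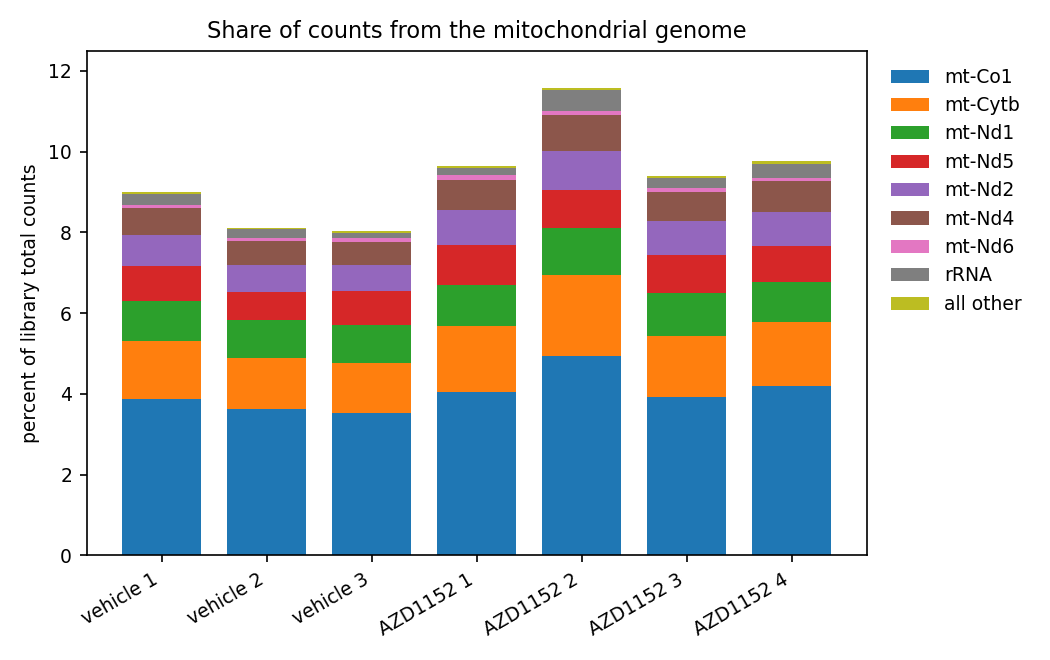
Percent of each library's total counts (vertical axis) from the mitochondrial genome, by library (horizontal axis), with stacked colours for the named genes, the ribosomal RNAs (rRNA) and all other mitochondrial genes. mt-Co1 is the largest layer in every library, and the 4 AZD1152 bars, 9.41% to 11.6%, all stand above the 3 vehicle bars, 8.03% to 9.002%.

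Nearly all of this share was messenger RNA. The 13 messengers took 7.87% to 8.71% of the library total with vehicle and 9.13% to 11.1% with AZD1152. mt-Co1, the catalytic subunit of complex IV, took 3.52% to 3.87% and 3.93% to 4.93% by itself. It had more counts than any other gene of the table in 6 of 7 libraries and ranked second in AZD1152 replicate 3. The ribosomal RNAs took 0.135% to 0.266% with vehicle and 0.178% to 0.5004% with AZD1152, and these ranges overlapped. The 22 transfer RNA genes took 0.00581% to 0.0231% and 0.0222% to 0.0250%, all of it from mt-Tp.

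Levels per length fell into separate tiers, and the low tier held the messengers that lie wholly within the copied block, whatever their complex. mt-Co1 and mt-Nd4, which lie only partly within the block, were not in the low tier. Values in this paragraph are vehicle means of CPM (counts per 1000000, with library totals scaled by TMM factors) per kilobase of gene. The length was that of the whole gene, copied stretches included, and whether reads of copied stretches were counted was not tested. The levels of mt-Nd4 (60.8% of stretches copied) and mt-Co1 (30.8%) may therefore be understated against the others. mt-Co1 stood highest at 22389, followed by mt-Cytb at 10931, mt-Nd1 at 9425, mt-Nd2 at 6252, mt-Nd4 at 4202, mt-Nd5 at 4146 and mt-Nd6 at 1546. The 6 other messengers were far lower: mt-Co2 stood at 170, mt-Co3 at 97.0, mt-Atp6 at 49.2, mt-Nd3 at 10.4, mt-Nd4l at 9.35 and mt-Atp8 at 0.746. mt-Co1 thus stood 132-fold above mt-Co2, although both are core subunits of complex IV. mt-Nd4 stood 450-fold above mt-Nd4l, whose reading frame overlaps it by 7 bases. Neighbours in this order did not always differ beyond their spread, as mt-Nd4 and mt-Nd5 overlapped in vehicle libraries and so did mt-Nd3 and mt-Nd4l.

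**Figure D2:**
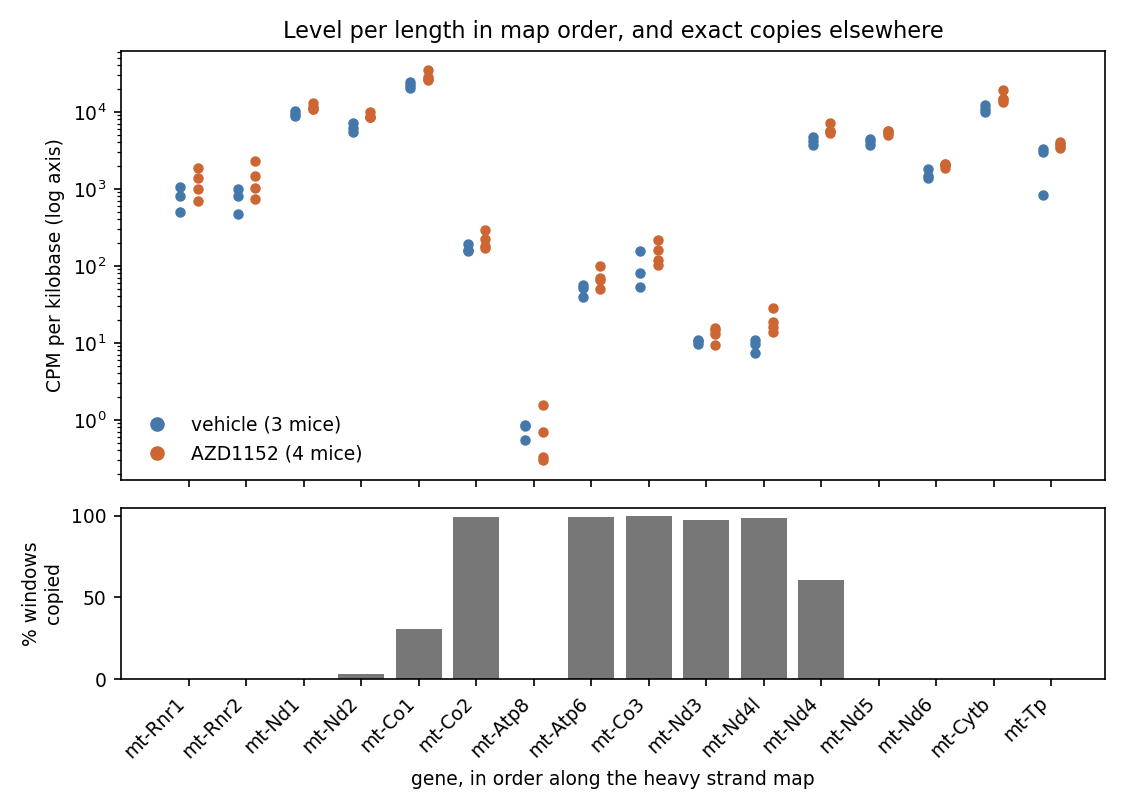
Upper panel: level of each mitochondrial gene with counts, in CPM per kilobase on a log axis, in 3 vehicle and 4 AZD1152 libraries, with genes in map order from mt-Rnr1 to mt-Tp. Lower panel: percent of the gene's 100-base stretches found exactly in another transcript. Genes with 97.6% or more of their stretches copied stand at a mean of 170 CPM per kilobase or less with vehicle. mt-Atp8, with none found in an annotated transcript, stands lower still.

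The 6 low messengers together held 0.256% to 0.393% of messenger counts per library, so nearly every statement on the messengers rests on the other 7. The counting rule for reads with several equal alignments was not given in the sources used here, and the part of the copies in these low values was not tested. The 7 copies on chromosome 1 took 0.0314% to 0.0447% of the counts in vehicle libraries and 0.0397% to 0.100% in AZD1152 libraries. This is close in size to the 0.0202% to 0.0310% and 0.0247% to 0.0397% of the 6 low messengers themselves, and their sum stayed far below the share of mt-Co1. All 7 copies had positive log2 fold changes of 0.41 to 1.02, with edgeR adjusted p of 0.0680 to 0.243, and 0 were called. Gm10925 had 163, 170 and 108 CPM with vehicle and 173, 660, 144 and 218 CPM with AZD1152. Its log2 fold change was 1.02 with all libraries and 0.27 without AZD1152 replicate 2.

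In the fit across all 15774 genes tested (edgeR quasi-likelihood, Benjamini-Hochberg adjusted p under 0.05), 15 mitochondrial genes passed the filter on low counts. 0 of the 15 were called higher and 0 were called lower. Over all genes 3.02% were called higher and 4.81% lower. All 15 log2 fold changes were positive, with a median of 0.50 against -0.000609 over all genes. Of the 15, 9 had an unadjusted p under 0.05 in edgeR. The share of all genes with such a p was not counted, here or for the lists below. CPM of the groups did not overlap, with AZD1152 higher, in 9 of the 15, against 11.2% of all genes tested. These genes are cut from shared precursors, so the 15 values are not independent. DESeq2's Wald test called 8 of the 15 higher and 0 lower (adjusted p of 0.000416 to 0.0265 for those called): mt-Nd1, mt-Nd2, mt-Nd4, mt-Nd4l, mt-Nd5, mt-Nd6, mt-Co1 and mt-Cytb. Over all 15774 genes DESeq2 called 950 higher and 1183 lower, against 476 and 759 by edgeR. The number called therefore depended on the tool, while the signs were the same in both.

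**Figure D3:**
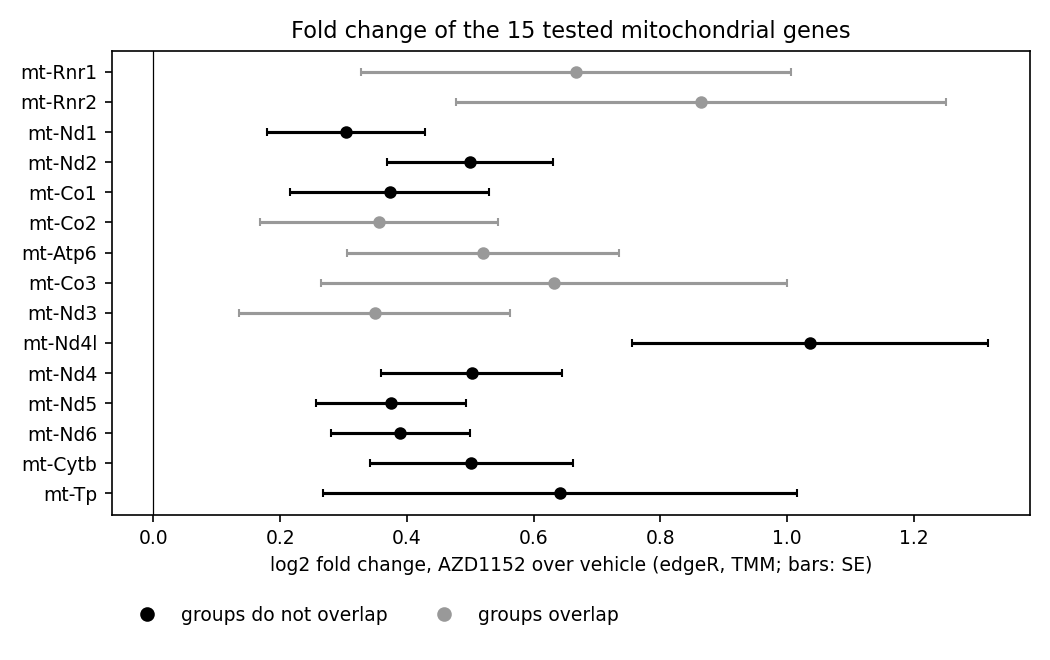
Log2 fold change of AZD1152 over vehicle for each of the 15 tested mitochondrial genes (edgeR, horizontal axis; bars are 1 standard error), with genes in map order. Black points are genes whose CPM did not overlap between groups and grey points those that overlapped. Every point lies to the right of 0, between 0.30 and 1.04.

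Complex I, which takes electrons from NADH, has 7 of its subunits in the mitochondrial genome. mt-Nd2 (ENSMUSG00000064345; chrM:3914-4951, plus strand), in the proton-pumping membrane arm, had 7340 CPM, 6425 CPM and 5703 CPM with vehicle. With AZD1152 it had 8794 CPM, 10304 CPM, 8802 CPM and 8795 CPM. The groups did not overlap, and 3 of the AZD1152 values lay almost on top of each other with replicate 2 above them. The log2 fold change was 0.50 ± 0.13 (SE; edgeR adjusted p = 0.0512), the closest to the threshold of all members. Its adjusted p was 0.0426 with upper-quartile factors, 0.0483 with library totals alone and 0.130 without vehicle replicate 3.

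mt-Nd4 (ENSMUSG00000064363; chrM:10167-11544, plus strand), another membrane-arm subunit, had 6470 CPM, 5732 CPM and 5170 CPM with vehicle. It had 7858 CPM, 9848 CPM, 7355 CPM and 7739 CPM with AZD1152. The groups did not overlap (log2 fold change 0.50 ± 0.14, edgeR adjusted p = 0.0661). mt-Nd1 (ENSMUSG00000064341; chrM:2751-3707, plus strand), which lies where the membrane arm meets the ubiquinone site, had 9681 CPM, 9054 CPM and 8325 CPM with vehicle. Its AZD1152 values were 10469.5 CPM, 12572 CPM, 11051 CPM and 10453 CPM. This was the smallest difference among the tested members, at 0.30 ± 0.12 on the log2 scale (adjusted p = 0.169 in edgeR), and again the groups did not overlap.

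mt-Nd5 (ENSMUSG00000064367; chrM:11742-13565, plus strand), the largest membrane-arm subunit, had 8205 CPM, 6777 CPM and 7704 CPM with vehicle and 10124.5 CPM, 10295 CPM, 9566 CPM and 9240.5 CPM with AZD1152. The log2 fold change of mt-Nd5 was 0.37 ± 0.12 (adjusted p = 0.0864 in edgeR). mt-Nd6 (ENSMUSG00000064368; chrM:13552-14070, minus strand) is the only messenger of the light strand, the strand opposite all the other messengers. It had 925 CPM, 714 CPM and 768 CPM with vehicle and 1094 CPM, 1076 CPM, 1069 CPM and 965 CPM with AZD1152. The groups did not overlap for either gene (mt-Nd6 log2 fold change 0.39 ± 0.11, edgeR adjusted p = 0.0640). The reading frames of mt-Nd5 and mt-Nd6 share 14 bases on opposite strands, and the strand setting was not given in the sources used here. If counting ignored strand, reads of this overlap could not be told apart, and opposite-strand reads anywhere along mt-Nd6 would be counted as mt-Nd6. The part of such reads in the mt-Nd6 values was not tested.

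The remaining complex I members were counted at under 10 CPM. mt-Nd4l (ENSMUSG00000065947; chrM:9877-10173, plus strand) had 56, 50 and 40 counts with vehicle and 139, 61, 86 and 68 counts with AZD1152. This gave 3.26 CPM, 2.85 CPM and 2.22 CPM against 8.40 CPM, 4.05 CPM, 5.49 CPM and 4.81 CPM. The groups did not overlap, and replicate 1 of AZD1152 was the highest. Its log2 fold change of 1.04 ± 0.28 was the largest of the members (edgeR adjusted p = 0.0566). When the counts of each member were summed with those of its exact nuclear copies, mt-Nd4l stood at 0.84 on the log2 scale with an adjusted p of 0.0420 in edgeR. Under the same summing mt-Nd3 stood at 0.59 (0.106) and mt-Atp6 at 0.94 (0.224), neither of them called. mt-Nd3 (ENSMUSG00000064360; chrM:9459-9806, plus strand) had 3.32 CPM, 3.82 CPM and 3.72 CPM with vehicle and 4.59 CPM, 5.17 CPM, 3.25 CPM and 5.45 CPM with AZD1152. These ranges overlapped (log2 fold change 0.35 ± 0.21, edgeR adjusted p = 0.357).

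Complex III, which passes electrons from ubiquinol to cytochrome c, has a single mitochondrially encoded subunit, cytochrome b. mt-Cytb (ENSMUSG00000064370; chrM:14145-15288, plus strand) had 13926.5 CPM, 12340 CPM and 11249 CPM with vehicle. With AZD1152 it had 16844 CPM, 21985 CPM, 15403 CPM and 16578 CPM. All AZD1152 libraries were above all vehicle libraries, with replicate 2 well above the others. The log2 fold change was 0.50 ± 0.16 (edgeR adjusted p = 0.0905), and it was 0.37 without AZD1152 replicate 2.

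Complex IV, cytochrome c oxidase, reduces oxygen and takes its catalytic core from the mitochondrial genome. mt-Co1 (ENSMUSG00000064351; chrM:5328-6872, plus strand) had 37285 CPM, 34907 CPM and 31583 CPM with vehicle. It had 41737 CPM, 53523 CPM, 40436 CPM and 43481 CPM with AZD1152. The groups did not overlap, although the log2 fold change was moderate at 0.37 ± 0.16 (edgeR adjusted p = 0.181), or 0.27 without AZD1152 replicate 2. mt-Co2 (ENSMUSG00000064354; chrM:7013-7696, plus strand), which accepts electrons from cytochrome c, had 109 CPM, 132 CPM and 107 CPM with vehicle and 115 CPM, 202 CPM, 122 CPM and 154 CPM with AZD1152. mt-Co3 (ENSMUSG00000064358; chrM:8607-9390, plus strand), the third core subunit, had 63.6 CPM, 123 CPM and 41.6 CPM with vehicle and 92.0 CPM, 172 CPM, 127 CPM and 80.3 CPM with AZD1152. For both genes the groups overlapped, with log2 fold changes of 0.36 ± 0.19 and 0.63 ± 0.37 (edgeR adjusted p = 0.281 and 0.330). Without AZD1152 replicate 2 the mt-Co2 value was 0.16. The mt-Co3 value ranged from 0.34 without vehicle replicate 3 to 1.17 without vehicle replicate 2.

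Complex V, the ATP synthase, has 2 members in the mitochondrial genome, both in its membrane part. mt-Atp6 (ENSMUSG00000064357; chrM:7927-8607, plus strand), part of the proton channel, had 35.3 CPM, 38.3 CPM and 27.1 CPM with vehicle and 34.0 CPM, 47.2 CPM, 43.9 CPM and 67.3 CPM with AZD1152. The ranges overlapped (log2 fold change 0.52 ± 0.21, edgeR adjusted p = 0.173), and the value was 0.31 without AZD1152 replicate 4. mt-Atp8 (ENSMUSG00000064356; chrM:7766-7969, plus strand) had 3, 3 and 2 counts with vehicle and 1, 1, 5 and 2 counts with AZD1152, and it did not pass the filter. No difference in mt-Atp8 was detectable at such low counts.

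The balance among the abundant messengers varied little from library to library. mt-Co1 made up 44.9% ± 0.744 of the counts of the 13 messengers with vehicle (SD, n = 3) and 43.8% ± 0.919 with AZD1152 (SD, n = 4; exact permutation test, p = 0.229). Of the counts of all mitochondrial genes, ribosomal RNA included, its share was lower by 1.45 percentage points with AZD1152. The groups did not overlap in that share (exact permutation test, p = 0.0571). This used an alternative denominator and was not part of the adjusted tests. The share of mt-Cytb was 16.2% against 17.3%, that of mt-Nd1 was 11.7% against 10.9%, and that of mt-Nd2 was 8.41% against 9.003% (exact permutation test, p = 0.114 for each of these 3). The share of mt-Nd5 was 9.85% against 9.66% and that of mt-Nd6 was 1.04% in both groups. From the lowest to the highest of the 7 libraries, mt-Co1's share varied 1.07-fold and mt-Nd5's varied 1.27-fold.

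Of the shares of messenger counts, that of mt-Nd4 was the one that did not overlap between the groups. It was 7.70%, 7.52% and 7.31% of messenger counts with vehicle and 8.09%, 8.20%, 7.83% and 7.93% with AZD1152 (exact permutation test, p = 0.0571). Adjusted over the 13 messengers, the lowest p of these exact tests was 0.371, so 0 shares passed the correction. mt-Nd4 is also the abundant messenger with the largest copied part (60.8% of its stretches). Its copy Gm28439 had 34.1 to 51.1 CPM with vehicle and 45.2 to 68.8 CPM with AZD1152, and the part of the copy in the share was not tested.

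**Figure D4:**
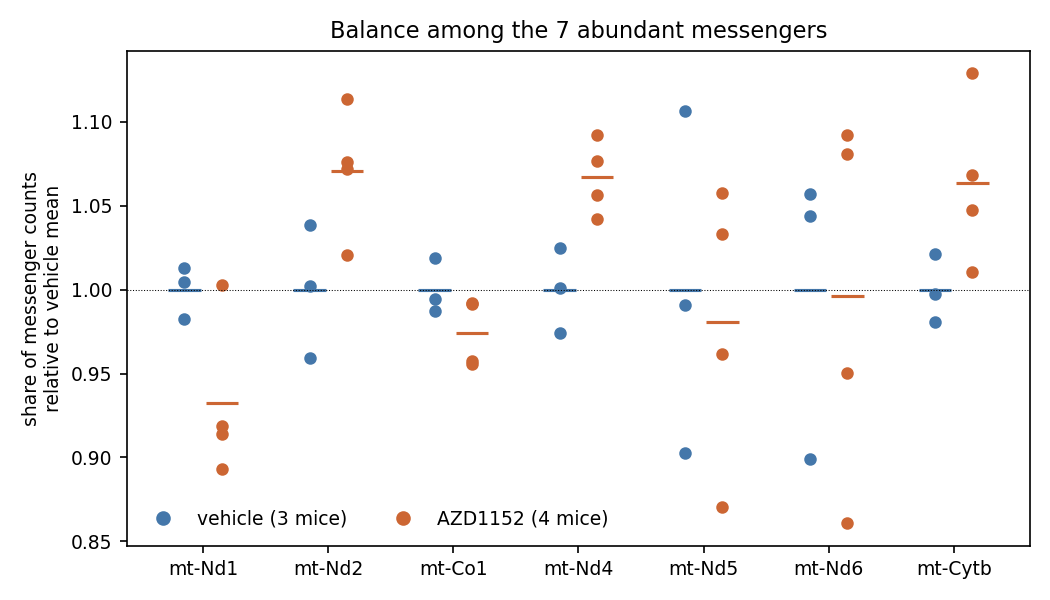
Share of each of the 7 abundant messengers in the counts of the 13 messengers (vertical axis, relative to the vehicle mean of that gene), with 1 point per library and a bar at each group mean. mt-Nd5 and mt-Nd6 show the widest spread within groups, and mt-Nd4 is the gene whose vehicle and AZD1152 points do not overlap.

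The proportion of mt-Nd6 to the heavy-strand messengers also varied little. The strand setting was not given, so that this ratio cannot be read as a balance between the strands. Per 100 counts of the 12 heavy-strand messengers, mt-Nd6 had 1.11, 0.945 and 1.10 counts with vehicle and 1.14, 0.905, 1.15 and 1.00 counts with AZD1152. The ranges overlapped almost fully. The log2 ratio differed by -0.0088 (exact permutation test, p = 1), and its sign turned when single libraries were left out.

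Both ribosomal RNAs varied more between mice than the 7 abundant messengers did. mt-Rnr1 (ENSMUSG00000064337; chrM:70-1024, plus strand), the RNA of the small mitochondrial ribosomal subunit, had 993 CPM, 764 CPM and 479 CPM with vehicle and 668 CPM, 1789 CPM, 955 CPM and 1321 CPM with AZD1152. mt-Rnr2 (ENSMUSG00000064339; chrM:1094-2675, plus strand), that of the large subunit, had 1573 CPM, 1281 CPM and 737 CPM with vehicle and 1160.2 CPM, 3643 CPM, 1603 CPM and 2310 CPM with AZD1152. AZD1152 replicate 2 was the highest for both and vehicle replicate 3 the lowest, and the groups overlapped. mt-Rnr2 varied 3.14-fold within the AZD1152 group, against 1.11-fold to 1.43-fold for the 7 abundant messengers. The log2 fold changes were 0.67 ± 0.34 for mt-Rnr1 and 0.86 ± 0.39 for mt-Rnr2 (edgeR adjusted p = 0.264 and 0.208). Without AZD1152 replicate 2 they were 0.39 and 0.49.

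Per 100 messenger counts there were 3.05, 2.68 and 1.72 ribosomal RNA counts with vehicle and 1.88, 4.53, 2.72 and 3.72 with AZD1152 (exact permutation test on the log2 ratio, p = 0.4). The order among mice was therefore not that of the treatment. mt-Rnr2 exceeded mt-Rnr1 by log2 ratios of 0.66, 0.75 and 0.62 with vehicle and 0.80, 1.03, 0.75 and 0.81 with AZD1152. These groups did not overlap, although the margin at the boundary was small (exact permutation test, p = 0.0571; adjusted over the 21 shares and ratios, 0.24). Capture of these RNAs by oligo(dT) was not measured.

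**Figure D5:**
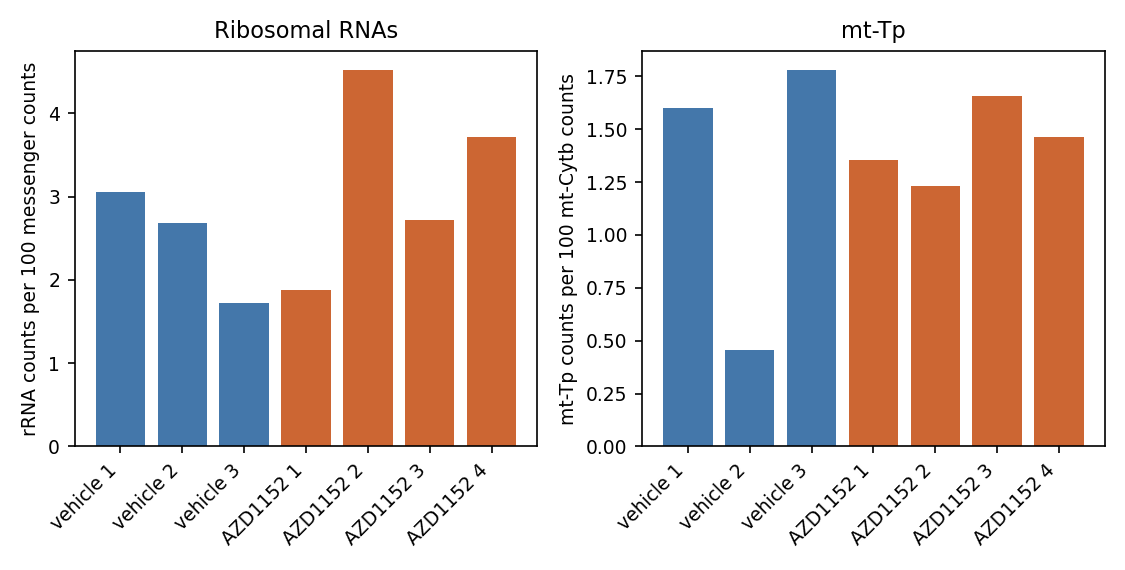
Left: counts of both ribosomal RNAs per 100 mitochondrial messenger counts, by library. Right: mt-Tp counts per 100 mt-Cytb counts, by library. Blue bars are vehicle and orange bars AZD1152. AZD1152 replicate 2 has the highest ribosomal value, 4.53, and vehicle replicate 2 the lowest mt-Tp value, 0.454.

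Of the 22 transfer RNA genes, 21 had 0 counts in all 7 libraries. If their reads could be counted, this allows each at most 0.176 to 0.204 CPM of the unscaled library totals (3 counts, counting error only). The counting rule was not given, and whether such reads could be counted was not tested. The 22 genes are 59 to 75 bases long, and 20 of them have annotated genes on both sides with gaps of at most 32 bases. The exception was mt-Tp, the transfer RNA for proline (ENSMUSG00000064372; chrM:15356-15422, minus strand), the last annotated gene before the non-coding control region. Its sequence is shown because this is the only transfer RNA gene that was counted.
mt-Tp: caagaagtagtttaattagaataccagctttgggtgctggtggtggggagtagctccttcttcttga
It had 3834, 983 and 3614 counts with vehicle and 3782, 4089, 4000 and 3424 counts with AZD1152. In CPM these were 223, 56.1 and 200.4 against 229, 271, 255 and 242. Vehicle replicate 2 was far below the other 6 libraries. In CPM the groups did not overlap, but as a share of the unscaled total they did. The log2 fold change was 0.64 ± 0.37 (edgeR adjusted p = 0.332), and 0.24 without vehicle replicate 2. Per 100 counts of mt-Cytb there were 1.60, 0.454 and 1.78 mt-Tp counts with vehicle and 1.36, 1.23, 1.66 and 1.46 with AZD1152 (exact permutation test, p = 0.8). The origin of these reads within the region was not examined.

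Nuclear genes that build the same complexes were counted in the same fit. Of 73 nuclear subunits of complexes I, III, IV and V tested, 16 rose and 0 fell, against 3.02% and 4.81% of all genes. Of these 73, 72 had a positive log2 fold change, with a median of 0.29. The complex I subunit Ndufa6 had 109 CPM, 107 CPM and 110.3 CPM with vehicle and 133 CPM, 143 CPM, 137 CPM and 139 CPM with AZD1152. Its rise on the log2 scale was 0.34 ± 0.06 (adjusted p = 0.0183 in edgeR). Ndufa9, near the ubiquinone site, rose by 0.40 ± 0.08, and Ndufc1 by 0.47 ± 0.10. Ndufa13 rose by 0.34 ± 0.07, Ndufb11 by 0.31 ± 0.07 and Ndufa8 by 0.34 ± 0.08, with edgeR adjusted p of 0.0183 to 0.0401 over these 6 genes. The count of 16 fell to 0 without vehicle replicate 1, vehicle replicate 3 or AZD1152 replicate 4, and to 2 without AZD1152 replicate 2 or 3. It was 11 without vehicle replicate 2 or AZD1152 replicate 1. Over all genes the 476 called higher became 126 without vehicle replicate 1, 60 without vehicle replicate 3 and 107 without AZD1152 replicate 4. They became 229 and 249 without AZD1152 replicates 2 and 3, 475 without vehicle replicate 2 and 311 without AZD1152 replicate 1. The difference between the median of the subunits (0.29) and that of the mitochondrial genes (0.50) was not tested.

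Among 22 nuclear genes of mitochondrial DNA transcription and replication, 1 rose and 0 fell, with a median of 0.09, and 1 in 22 is near the 3.02% of all genes that were called higher. Twnk, the helicase that unwinds mitochondrial DNA at the replication fork, had 27.6 CPM, 27.8 CPM and 23.8 CPM with vehicle and 36.4 CPM, 37.9 CPM, 36.9 CPM and 36.1 CPM with AZD1152. Its rise of 0.48 ± 0.09 on the log2 scale (edgeR adjusted p = 0.0179) lost its call without vehicle replicate 3 (adjusted p = 0.0592 in edgeR). The exonuclease Mgme1 stood at 0.50 ± 0.13 on that scale (adjusted p = 0.0539 in edgeR), the transcription factor Tfb2m at 0.30 ± 0.10 (0.106) and Tfam, which packages the genome and activates its transcription, at 0.23 ± 0.09 (0.152). These 3 did not pass the test.

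Among 35 tested genes of mitochondrial RNA processing and decay, 1 rose and 0 fell, with a median of 0.13, again near the 3.02% of all genes. Hsd17b10 is a dehydrogenase and also a subunit of mitochondrial RNase P, the enzyme that cuts the 5′ ends of the transfer RNAs. It rose by 0.41 ± 0.09 on the log2 scale (edgeR adjusted p = 0.0267). The call was lost without vehicle replicate 1, vehicle replicate 3 or AZD1152 replicate 4, where adjusted p in edgeR reached 0.105. Lrpprc, which stabilises mitochondrial messengers, had 107 CPM, 124 CPM and 92.2 CPM with vehicle and 148 CPM, 156 CPM, 134 CPM and 133 CPM with AZD1152. It did not pass (0.41 ± 0.11, edgeR adjusted p = 0.0538), and neither did Ptcd2 (0.23 ± 0.09, 0.147) and Mto1 (0.32 ± 0.13, 0.156). Of 20 mitochondrial aminoacyl-tRNA synthetases, which charge the transfer RNAs, 0 were called in either direction by edgeR and 5 had an unadjusted p under 0.05, with a median of 0.12. The 4 with the smallest p were Fars2, Vars2, Iars2 and Hars2, at 0.23, 0.26, 0.22 and 0.23 on the log2 scale.

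Among 18 regulators of mitochondrial biogenesis, 1 rose and 0 fell, with a median of 0.11, against 3.02% and 4.81% of all genes. With library totals alone 1 was called higher and 2 lower. Sirt3, a deacetylase of the mitochondrial matrix, had 50.03 CPM, 49.6 CPM and 49.6 CPM with vehicle and 70.5 CPM, 64.9 CPM, 63.3 CPM and 66.7 CPM with AZD1152. It rose by 0.42 ± 0.06 (edgeR adjusted p = 0.0123) and kept its call when any single library was left out (0.0204 to 0.0484). The nuclear receptor Esrra had 0.34 ± 0.10 (edgeR adjusted p = 0.0745) and Ppara 0.48 ± 0.20 (0.169), while the coactivator Pprc1 had -0.37 ± 0.13 (0.110). None of these 3 passed the test.

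A further list of 14 pseudogenes had been drawn up by name as nuclear copies of mitochondrial sequence. 13 were in the table, of which 9 aligned to a mitochondrial gene over at least 100 bases and 4 (Gm10221, Gm11808, Gm15772 and Gm47283) did not. By edgeR 0 of the 13 were called, and 6 had an unadjusted p under 0.05. Besides the 7 of the chromosome 1 block, of which 5 had such a p, the aligned genes of the list were Gm13340, a diverged copy of mt-Co1 (97.6% identity) at 0.53 ± 0.18 on the log2 scale, and Gm13341, one of mt-Co2 at -0.52 ± 0.49 (unadjusted p = 0.316 in edgeR). The 4 that did not align had log2 fold changes of 0.25 (Gm10221), 0.20 (Gm11808), 0.07 (Gm15772) and -0.49 (Gm47283).

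All 9 markers used to check the tissue, from tubule segments and podocytes, passed the filter on low counts. Markers of several cell types also differed between the groups, in either direction. Proximal tubule markers summed to 17311 to 21530 CPM with vehicle and 26055 to 31363 CPM with AZD1152, highest in AZD1152 replicate 2. Of the 20 markers 8 rose and 0 fell, with a median of 0.54, among them the gluconeogenic enzyme Fbp1 (0.70 ± 0.13, edgeR adjusted p = 0.0179). Of the distal convoluted tubule markers 4 of 6 rose and of the collecting duct markers 3 of 9, while 1 of 8 thick ascending limb markers fell. Summed CPM overlapped between the groups for each of these segments. Of all genes 3.02% rose and 4.81% fell. With library totals alone 2 markers of the distal convoluted tubule and 0 of the collecting duct were called higher. T cell markers summed to 79.1 to 144.6 CPM and 22.4 to 52.0 CPM, and 9 of 15 fell. Macrophage markers summed to 999 to 1373 CPM and 462 to 713 CPM, and 10 of 14 fell. Of 9 B and plasma cell markers and 4 erythroid markers 0 were called by edgeR, with 4 and 0 at an unadjusted p under 0.05. The erythroid markers summed to 1246 CPM in AZD1152 replicate 2 and to 305 to 702 CPM in the other 6 libraries. The fat markers Adipoq and Lep and the muscle markers Acta1 and Myh4 had 0 counts in all libraries. The part of these markers in the mitochondrial values was not tested. The count of 8 proximal tubule markers was 1 without vehicle replicate 1, vehicle replicate 3 or AZD1152 replicate 4 and 3 without AZD1152 replicate 2 or 3 and 5 without vehicle replicate 2 or AZD1152 replicate 1. The 4 markers of the distal convoluted tubule fell in number to as few as 1, and the 3 of the collecting duct and the 1 of the thick ascending limb to 0, without single libraries of either group. The count of 9 T cell markers was 1 without vehicle replicate 3, 3 without vehicle replicate 2 or AZD1152 replicate 4 and 5 without AZD1152 replicate 3. The count of 10 macrophage markers was 2 without vehicle replicate 3 and 3 without vehicle replicate 1. Calls over all genes changed in these settings too. The 759 genes called lower became 163 without vehicle replicate 3, 272 without vehicle replicate 1 and 336 without AZD1152 replicate 4. Without vehicle replicate 2 they were 619, and without AZD1152 replicate 3 they were 608. The 476 called higher became 60 without vehicle replicate 3, 126 without vehicle replicate 1 and 107 without AZD1152 replicate 4.

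Scaling bears on all of these values. The TMM factors were 1.04 to 1.11 in vehicle libraries and 0.921 to 0.972 in AZD1152 libraries, which raises AZD1152 levels relative to vehicle. Scaled by library totals alone, the median over all genes moved to -0.151 on the log2 scale, and the 15 mitochondrial genes lay between 0.15 and 0.90, all still positive. Under that scaling 233 genes were called higher and 1480 lower, in place of 476 and 759. Scaled by their own messengers, the mitochondrial genes had log2 fold changes from -0.10 for mt-Nd1 to 0.66 for mt-Nd4l, and 0 were called.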

How the data were processed

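Kidney RNA of 3 vehicle and 4 AZD1152 mice was analysed from a table of raw counts per gene, deposited by the authors without normalization. Per the labels' protocols the libraries were made with a TruSeq kit from oligo(dT)-captured RNA. Per the submitters' processing notes CASAVA, HISAT2 2.0.5, GRCm38, DESeq2 and DESeq were used. The counter, strand setting, annotation release and read length are not given in the sources used here.

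Gene symbols (53274 of 53465), positions and sequences came from GENCODE M21 (GRCm38). The main test was edgeR's quasi-likelihood test (4.0.16, in R 4.3.3) on group alone, after filterByExpr and TMM, with Benjamini-Hochberg adjustment over 15774 genes. CPM are TMM-scaled, and 1 count was 0.0587 to 0.0681 CPM of the unscaled library total. Shares and ratios were tested by exact two-sided permutation over 35 assignments. Copies were found as exact stretches of 100 bases and by blast alignment. The edgeR step was tested on simulated counts with a fixed dispersion. Mice of equal number were not treated as pairs, and no 2 libraries agreed within sampling noise (lowest chi-square per degree of freedom 10.5).

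All members with counts were named, with the 4 members of each nuclear list with the smallest p (6 for respiratory subunits), the listed nuclear copies and single markers. Members and lists were chosen with earlier results of these data known. Alternatives were other scaling factors, filters, DESeq2 1.42.0, a replicate block, leaving out each library, and, chosen after seeing the data, summing with nuclear copies and using the 7 messengers with at least 300 uncopied stretches.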

Additional observations from a re-analysis of the deposited data

Results flagged for a closer look

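53 measures were looked at for a single AZD1152 library far from the other 3, and chance sets apart about 1 in 20 such groups. The groups of 3 vehicle mice were not looked at in this way. Each library set apart was AZD1152 replicate 2. Its mitochondrial share of 11.6% stood against 9.41% to 9.76% in the other AZD1152 libraries, its messenger share of 11.1% against 9.13% to 9.44%, and its share of the 7 abundant messengers of 11.0172% against 9.11% to 9.42%. mt-Nd2 had 10304 CPM there against 8794 to 8802 CPM, and the nuclear copy Gm10925 had 660 CPM (659.9) against 144 to 218 CPM. The 4 mitochondrial measures overlap in content, since they count largely the same reads.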

How the results depend on the processing

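The higher mitochondrial share kept its direction in all 11 alternatives (1.22 to 2.67 percentage points). By edgeR 0 mitochondrial genes were called, as with RLE factors, with the replicate block, scaled by mitochondrial messengers and without each library in turn. 1 was called with upper-quartile factors, with library totals alone, with TMM factors without mitochondrial genes, with the stricter filter and after summing with nuclear copies, 2 without a filter, and 8 by DESeq2; the cause was not tested. The 240 folds under settings other than messenger scaling were all positive. Relative to the messengers, mt-Nd1 (-0.101), mt-Co1 (-0.0377), mt-Co2 (-0.0742), mt-Nd3 (-0.0675), mt-Nd5 (-0.0279) and mt-Nd6 (-0.00573) turned negative, since that scale sets their sum to no change. Leaving out single libraries turned small differences: mt-Nd6 against the heavy strand ran from -0.0843 to 0.0597, and shares of messenger counts, in percentage points, from -0.0182 to 0.00311 (mt-Co2), -0.00311 to 0.00822 (mt-Atp6), -0.00460 to 0.0465 (mt-Co3), -0.000614 to 0.000135 (mt-Nd3), -0.669 to 0.336 (mt-Nd5) and -0.0566 to 0.0428 (mt-Nd6). The 16 respiratory subunits called became 2 with library totals alone, 8 without a filter, 40 by DESeq2, and 0 with the replicate block or scaled by mitochondrial messengers. DESeq2 called 950 of all genes higher and 1183 lower, the fit without a filter 558 and 973, and messenger scaling 57 and 5227. Over all genes the replicate block called 64 higher and 148 lower. It called 0 genes of the other nuclear lists (Sirt3 adjusted p = 0.0650 in edgeR) and, of the markers, 1 of the proximal tubule, 0 of the distal convoluted tubule and collecting duct, 1 of T cells and 4 of macrophages. Deviations of equal-numbered mice correlated at -0.296, 0.216 and -0.108. In mt-Atp8, mt-Nd3 and mt-Nd4l the low counts limit what can be told, and the cause of these low counts was not tested.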
